A study of Mus musculus with 18 samples.

Results

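The genes described here are those of the mouse egg coat, Zp1, Zp2, Zp3 and Astl. They were chosen by symbol, with no measured value in the rule, but with earlier results of these data known. Each of the 4 had 1 probe set annotated to it alone on the Affymetrix array used, among 18193 genes with such a probe set. All 4 passed the filter on dim signals, which left 12713 genes to be tested. Total RNA of whole ovaries was hybridised to 18 arrays, 3 biological replicates in each of 6 groups of female mice. Pik3cd-/- mice were set against Pik3cd+/- mice, so every control animal was itself heterozygous and no Pik3cd+/+ group was used here. Pik3cd encodes the delta catalytic subunit of phosphoinositide 3-kinase. Both genotypes had the mixed background given as C57B6J/S129. One pair of groups was taken 44 hours after a single intraperitoneal injection of 10 IU of PMSG (pregnant mare serum gonadotropin, which acts on the follicle-stimulating hormone receptor). Another pair was taken 72 hours after the first of 3 injections of E2 (estradiol), each of 0.03 ml and 24 hours apart; the mass of hormone in that volume was not given. The last pair was untreated and taken on day 21 after birth. Treated mice began at 21 days and were therefore older at dissection by the hours of treatment, and no group received a vehicle injection.

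The zona pellucida is the glycoprotein coat that the growing oocyte secretes around itself; sperm bind to it and must cross it. In the mouse its filaments are built of ZP2 and ZP3 and are cross-linked by ZP1, and ovastacin, the metalloprotease encoded by Astl, is released from cortical granules at fertilisation and cleaves ZP2 so that no more sperm can bind. Within the ovary the 4 genes are known as oocyte transcripts, and the zona genes are known targets of FIGLA, a helix-loop-helix factor that binds the E-box, CANNTG, with a partner protein. The ovary was analysed whole, so fewer or smaller oocytes in a given amount of RNA cannot be told apart from less of a transcript in each oocyte.

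The sequence before the transcription start is shown for the members in the RefSeq promoter table (GRCm38.p6). The E-box is marked in it as the motif that FIGLA binds. Of the 4 members 2 matched that table, Zp3 and Astl; Zp1 and Zp2 did not. Each line holds the 250 bases before a start, 5′ to 3′ on the plus strand, with every CANNTG in capitals. The Zp3 window is chr5:135979855-135980104. The Astl window shown is chr2:127341386-127341635, which lies inside the annotated gene, before an internal start.
Zp3: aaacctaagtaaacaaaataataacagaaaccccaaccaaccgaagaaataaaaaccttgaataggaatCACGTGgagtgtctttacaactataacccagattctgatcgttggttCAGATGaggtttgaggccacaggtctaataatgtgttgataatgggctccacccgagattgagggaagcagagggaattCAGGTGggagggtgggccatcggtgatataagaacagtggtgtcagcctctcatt
Astl: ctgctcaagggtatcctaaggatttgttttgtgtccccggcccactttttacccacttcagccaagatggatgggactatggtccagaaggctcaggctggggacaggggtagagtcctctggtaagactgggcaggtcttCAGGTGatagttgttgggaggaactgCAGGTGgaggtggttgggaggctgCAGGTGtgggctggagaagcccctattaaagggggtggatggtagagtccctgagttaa
Both printed windows held 3 CANNTG, which 12.2% of 32851 such windows from 27025 genes did or exceeded when both strands were read. In Astl all 3 read CAGGTG, beginning 109, 83 and 59 bases before the start. Zp3 had CACGTG at 181, CAGATG at 134 and CAGGTG at 55 bases before its start. At least 1 CANNTG was present in 66.2% of all windows and at least 1 CAGGTG, which is one form of CANNTG and overlaps it, in 17.2%. The other Astl start lies upstream, and the 250 bases before it, chr2:127338389-127338638, held 0 CANNTG. Those bases directly precede the annotated Astl gene, chr2:127338639-127357655. The count of 3 thus belongs to the internal start alone. The letters TATAA, searched on the plus strand alone, began 160 and 29 bases before the Zp3 start and were found in 16% of windows. Neither printed window held TAATTG or TAATTA on either strand, the homeobox motifs searched, which were present in 7.17% and 4.84% of windows. Such a match is a description of the letters and was not tested as a binding site.

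The deposited values are intensities on a linear scale, and array medians lay between 48.4 and 50.9. Pik3cd had 6 probe sets, and the one that separated the genotypes most clearly, chosen after its values were seen, averaged 23.5 in Pik3cd-/- and 69.7 in Pik3cd+/- ovaries after PMSG, 22.4 and 70.4 after E2, and 26.2 and 67.1 in untreated ovaries, with no overlap of the genotypes in any state. Another, the brightest, averaged 3126 in Pik3cd-/- and 3972 in Pik3cd+/- ovaries after PMSG, but 3382 and 2739 after E2 and 3608 and 3115 in untreated ovaries, where it was higher in the mutant with overlapping arrays; where these probes lie relative to the deleted part is not given in the sources used here. Oocyte RNA was readily detected: the summed signal of the 6 oocyte markers Gdf9, Bmp15, Ddx4, Dazl, Nobox and Figla ran from 3621 to 11791 over the 18 arrays. All 6 also stand in the gene lists below, Nobox and Figla among the factors and the rest among the other oocyte genes. Counts of these markers and of those lists therefore share genes. The Pik3cd-/- E2 group was the least even. Replicate 3 had low oocyte signals: its mean correlation with its own group was 0.989, against 0.991 with arrays of the other groups, and its 6 oocyte markers summed to 6021, against 10744 and 11025 in the other Pik3cd-/- E2 arrays. Replicate 2 had the same mean correlation with the group, 0.989, and low sums of macrophage (884, against 2487 and 3659), smooth muscle (8293, against 12453 and 13054) and stroma markers (10201, against 17951 and 19665). The fitted differences of the members that rest on this group are given with and without replicate 3, and the effect of leaving out each of its arrays is given where it changes a call or a count.

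Zp1, whose product cross-links zona filaments, had signals of 1409, 1482 and 1525 in Pik3cd-/- ovaries after PMSG, against 505, 625 and 665 in Pik3cd+/- ovaries after PMSG. After E2 the Pik3cd-/- arrays gave 1923, 2157 and 943 and the Pik3cd+/- arrays 916, 738 and 728. Every mutant PMSG array was far above the heterozygous ones, whereas after E2 mutant replicate 3 lay just above the highest heterozygous array. Untreated Pik3cd-/- ovaries gave 1730.1, 2478 and 2086, against 1183, 1283 and 1148 in untreated Pik3cd+/- ovaries, again without overlap.

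Zp2 encodes the zona protein that ovastacin cleaves. Its signals were 2148, 2596 and 2483 in Pik3cd-/- ovaries after PMSG, against 796, 882 and 973 in Pik3cd+/- ovaries. After E2 they were 2715, 2816 and 1828 in Pik3cd-/- and 1108, 1062 and 1114 in Pik3cd+/- ovaries. The heterozygous E2 arrays were close to each other, and even the low mutant replicate 3 was well above them. In untreated ovaries the mutant arrays gave 2626, 3595 and 2942, against 1857, 1739 and 1434 in the heterozygous ones. The genotypes did not overlap in any of the 3 states.

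Zp3 encodes a structural protein of the zona filament. Its signals were 3520, 3942 and 3783 in Pik3cd-/- ovaries after PMSG, against 1479.5, 1635 and 1629 in Pik3cd+/- ovaries. After E2 the mutant arrays gave 5289, 5619 and 2963 and the heterozygous arrays 2040.3, 1900.1 and 1974. Mutant E2 replicate 3 was far below the other two and above every heterozygous E2 array. Untreated Pik3cd-/- ovaries gave 4625, 5043 and 4807, against 2928, 3213 and 2862 in untreated Pik3cd+/- ovaries, without overlap.

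Astl signals were 914, 927 and 831 in Pik3cd-/- ovaries after PMSG, against 302, 362 and 352 in Pik3cd+/- ovaries. After E2 they were 1124, 1113 and 489.9 in Pik3cd-/- and 456, 428 and 406 in Pik3cd+/- ovaries. The low value of mutant E2 replicate 3 thus appeared in Astl as in all 3 zona genes. Untreated ovaries gave 948, 1449.9 and 1142 in Pik3cd-/- and 704, 673 and 631 in Pik3cd+/-, with no overlap.

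**Figure D1:**
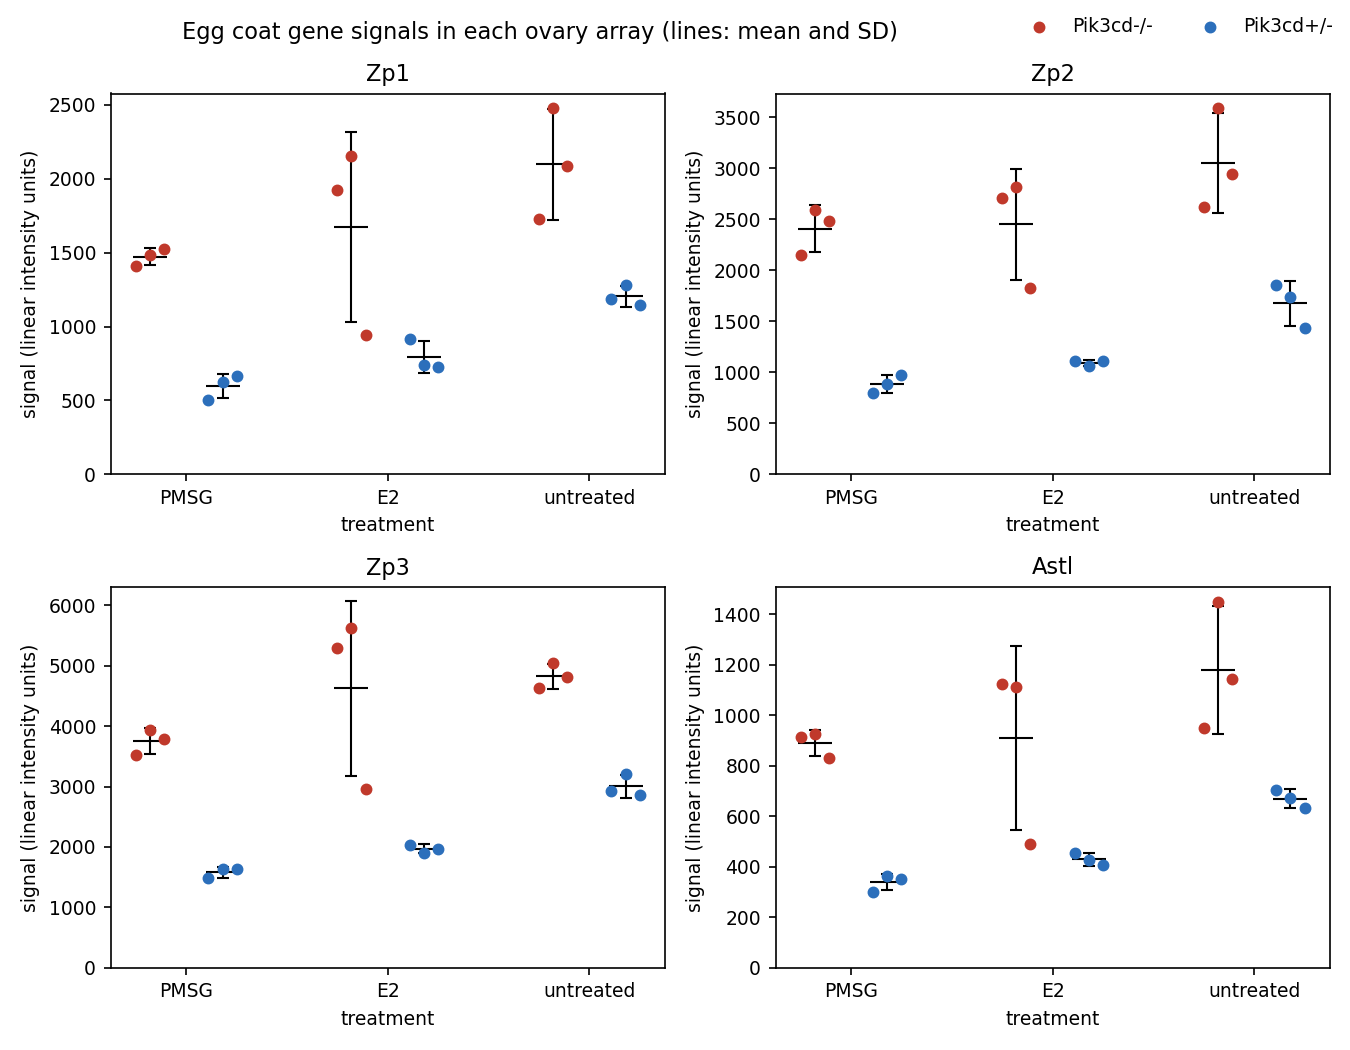
Signals of Zp1, Zp2, Zp3 and Astl (vertical axes, linear intensity units, each from 0) in each of the 18 ovary arrays by treatment (horizontal axis); red points are Pik3cd-/- arrays, blue points Pik3cd+/- arrays, and black lines give the mean and SD of 3 arrays. In every panel the red points lie above the blue points of the same treatment, the lowest blue group is PMSG, and 1 of the red E2 points lies far below the other two.

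The 6 groups stood in the same order in all 4 genes: Pik3cd-/- untreated highest, then Pik3cd-/- E2, Pik3cd-/- PMSG, Pik3cd+/- untreated, Pik3cd+/- E2 and Pik3cd+/- PMSG. For Zp1 the means ± SD down this order were 2098 ± 374, 1675 ± 644, 1472 ± 58.4, 1204 ± 70.1, 794 ± 106 and 598 ± 83.5 (n = 3 each). For Zp3 they were 4825 ± 209, 4624 ± 1448, 3748 ± 213, 3001 ± 186, 1972 ± 70.2 and 1581 ± 88.1 (n = 3 each). The order is that of mean signals. For Astl the Pik3cd-/- E2 and Pik3cd-/- PMSG means, 909 and 891, stood the other way round as mean log2 values, 9.75 and 9.81. In all 4 genes the arrays of neighbouring mutant groups overlapped. The mutant group with the lowest mean, PMSG, did not overlap with untreated heterozygous ovaries, and no neighbouring heterozygous groups overlapped. Apart from replicate 3 of the E2 group, every mutant array after either hormone lay above every untreated heterozygous array.

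The first comparison was between genotypes after PMSG. All 4 egg coat genes were higher in Pik3cd-/- than in Pik3cd+/- ovaries, by 2.36-fold to 2.71-fold, on the scale of signal plus 8.58 that is used for every fold and log2 value here. The difference was 1.30 ± 0.22 for Zp1 (log2 ± SE, here and below; limma's moderated test with Benjamini-Hochberg adjustment over the 12713 genes, adjusted p = 0.00633), 1.44 ± 0.15 for Zp2 (adjusted p = 0.000455), 1.24 ± 0.16 for Zp3 (adjusted p = 0.00142) and 1.38 ± 0.23 for Astl (adjusted p = 0.00608). So 4 of 4 members rose, against 3.08% of all genes tested, and the arrays did not overlap in 4 of 4, against 16.7% of all genes that were higher in this way. Their median difference was 1.34, while that of all genes was 0.014. Ordered by size of the rise among 12713 genes, Zp2 was number 4, Astl 6, Zp1 12 and Zp3 14. All 4 calls held in each alternative setting and without any 1 array. Between these groups 5 of 6 oocyte markers rose, and 0 of 9 granulosa, 0 of 6 theca, 0 of 7 macrophage, 0 of 5 smooth muscle, 0 of 5 stroma and 0 of 2 oviduct markers were called. In Pik3cd+/- PMSG replicate 1 the oviduct markers summed to 4048, against 264 and 109 in the other arrays of that group. Without this array the genotype differences were 1.18 for Zp1, 1.37 for Zp2, 1.19 for Zp3 and 1.30 for Astl. Stroma markers were above 0 in 5 of 5, with sums of 17904 to 20437 in Pik3cd-/- and 12860.2 to 18499 in Pik3cd+/- PMSG ovaries. Below 0 were 6 of 7 macrophage and 4 of 5 smooth muscle markers. The 3′ to 5′ signal ratio, a check of RNA quality, was 1.35 to 1.43 and 1.27 to 1.38 for Actb. For Gapdh it was 0.785 to 0.865 and 0.787 to 0.835. The part of oviduct tissue, of these cells and of RNA quality in the genotype differences was not tested.

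After E2 the egg coat genes were again higher in Pik3cd-/- ovaries, by 1.96-fold to 2.25-fold. Zp1 differed by 0.99 ± 0.22 (limma, adjusted p = 0.0116), Zp2 by 1.13 ± 0.15 (adjusted p = 0.00113), Zp3 by 1.17 ± 0.16 (adjusted p = 0.00123) and Astl by 0.97 ± 0.23 (adjusted p = 0.0136). These were 4 of 4 members, against 4.85% of all genes that rose, and no overlap in 4 of 4, against 8.89% of all genes. The median was 1.06 for the 4 members and -0.068 for all genes. Without Pik3cd-/- E2 replicate 3 the differences were 1.36, 1.33, 1.46 and 1.36 for Zp1, Zp2, Zp3 and Astl. Without Pik3cd-/- E2 replicate 1 Zp1 (0.85, adjusted p = 0.058) and Astl (0.77, adjusted p = 0.0699) were no longer called, and without replicate 2 of that group Astl was not (0.78, adjusted p = 0.0527). With the spread estimated from these 2 groups alone, only Zp2 was called. Of the cell markers, 6 of 6 for oocytes and 1 each for granulosa, theca and stroma rose with the egg coat genes here. The 3′ to 5′ ratio of Gapdh was 0.768 to 0.821 in Pik3cd-/- and 0.83 to 0.908 in Pik3cd+/- E2 ovaries, which do not overlap, and that of Actb was 1.43 to 1.49 and 1.33 to 1.53. The part of these cells and of RNA quality in the difference was not tested. Both hormone states together held 220 genes called higher in the mutant in each, which is 1.73% of those tested, the 4 members among them.

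In untreated ovaries the mutant excess was smaller. Zp2 (0.86 ± 0.15, limma adjusted p = 0.0195) and Zp3 (0.68 ± 0.16, adjusted p = 0.0397) rose, by 1.81-fold and 1.61-fold. The values for Zp1 (0.78 ± 0.22, adjusted p = 0.0725) and Astl (0.79 ± 0.23, adjusted p = 0.0757) were of like size and were not called. That made 2 of 4 members, against 0.834% of all genes that rose, while the arrays did not overlap in 4 of 4, against 12.5% of all genes. These calls depended on single arrays: 0 remained without Pik3cd+/- untreated replicate 2, Pik3cd+/- untreated replicate 3 or Pik3cd-/- untreated replicate 2, and 1 remained without replicate 1 of either genotype. Of the cell markers 3 of 6 for oocytes and 1 of 9 for granulosa rose, while 7 of 9 granulosa markers were below 0, with a median of -0.33. Macrophage (7 of 7) and smooth muscle markers (5 of 5) were above 0, none past the test. Macrophage sums were 1413 to 2717 in Pik3cd-/- and 1043 to 1190.2 in Pik3cd+/- ovaries. Stroma sums were 16970.2 to 22713 in Pik3cd-/- and 13689.6 to 15408 in Pik3cd+/- ovaries, and neither pair of ranges overlaps. The 3′ to 5′ ratio of Actb was 1.36 to 1.44 in Pik3cd-/- and 1.32 to 1.35 in Pik3cd+/- ovaries, that of Gapdh 0.784 to 0.813 and 0.805 to 0.823. The part of these values in the egg coat differences was not tested. The differences without each array in turn ran from 0.73 to 0.96 for Zp2 and from 0.65 to 0.73 for Zp3. Pik3cd-/- arrays lay above all Pik3cd+/- arrays of the same state, in all 3 states, for 305 genes (2.4% of those tested), which included all 4 members.

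The egg coat genes of heterozygous ovaries were lower after PMSG than without treatment. Relative to untreated Pik3cd+/- ovaries, Zp1 fell to 49.8%, Zp2 to 53.1%, Zp3 to 52.8% and Astl to 51.1%. The differences were -1.01 ± 0.22 for Zp1 (limma, adjusted p = 0.00822), -0.91 ± 0.15 for Zp2 (adjusted p = 0.00184), -0.92 ± 0.16 for Zp3 (adjusted p = 0.00244) and -0.97 ± 0.23 for Astl (adjusted p = 0.0115). Thus 4 of 4 fell, against 11.9% of all genes, and 4 of 4 did not overlap, against 24.9% of all genes. The median over all genes was -0.045. All 4 calls held without any 1 array and in each alternative setting.

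Markers of some other cell types also differed in this PMSG comparison, in which 5.81% of all genes rose and 11.9% fell. All 7 macrophage markers were higher after PMSG, 4 of them past the test, and their summed signal was 1609 to 3106 in Pik3cd+/- PMSG ovaries, against 1043 to 1190.2 in untreated Pik3cd+/- ovaries. All 5 smooth muscle markers were higher too, 2 of them past the test, with sums of 12160 to 15062 against 9758 to 11633. Granulosa markers summed to 28012 to 42728 after PMSG, against 32353 to 34613, and of 9 markers 1 rose and 2 fell. Theca and interstitial markers summed to 21962 to 29547 after PMSG, against 14132 to 16547, with 3 of 6 higher and 2 lower past the test. Of 5 stroma markers 1 fell, and 0 of 2 oviduct markers were called, with sums of 109 to 4048 after PMSG, against 66.3 to 1256. The highest macrophage, smooth muscle and oviduct sums after PMSG were all those of Pik3cd+/- PMSG replicate 1. That array was the lowest of its group in all 4 egg coat genes. The part of these cell types in the fall of the egg coat genes was not tested. The 3′ to 5′ signal ratio of Gapdh, a check of RNA quality, was 0.787 to 0.835 after PMSG, against 0.805 to 0.823 in untreated ovaries, and that of Actb was 1.27 to 1.38, against 1.32 to 1.35.

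In Pik3cd-/- ovaries the same contrast gave smaller values and no call. PMSG against untreated ovaries differed by -0.49 ± 0.22 for Zp1 (limma, adjusted p = 0.246), -0.33 ± 0.15 for Zp2 (adjusted p = 0.247), -0.36 ± 0.16 for Zp3 (adjusted p = 0.233) and -0.38 ± 0.23 for Astl (adjusted p = 0.385). Thus 0 of 4 were called by limma, against 2.39% of all genes, and 3 of 4 had an unadjusted p under 0.05, as did 19% of all genes. The arrays did not overlap in 4 of 4, against 14.4% of all genes that were lower. With the spread estimated from these 2 groups alone Zp3 was called (adjusted p = 0.0441). The 95% intervals allow a fall of up to 0.97 for Zp1, 0.66 for Zp2, 0.71 for Zp3 and 0.87 for Astl on the log2 scale.

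Whether the response to PMSG differed between the genotypes was tested directly. The response in Pik3cd-/- minus that in Pik3cd+/- ovaries was 0.51 ± 0.32 for Zp1 (limma, adjusted p = 0.63), 0.58 ± 0.22 for Zp2 (adjusted p = 0.424), 0.56 ± 0.23 for Zp3 (adjusted p = 0.469) and 0.59 ± 0.33 for Astl (adjusted p = 0.594). None of the 4 passed, and by limma 0 of the 12713 genes did (0%). At an unadjusted p under 0.05 there were 2 of the 4, Zp2 and Zp3, and 1194 genes in all, or 9.39%. The call in one genotype and its lack in the other is therefore not a shown difference between them.

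For E2 against untreated Pik3cd+/- ovaries the values were -0.60 ± 0.22 for Zp1 (limma, adjusted p = 0.185), -0.60 ± 0.15 for Zp2 (adjusted p = 0.0583), -0.60 ± 0.16 for Zp3 (adjusted p = 0.0711) and -0.63 ± 0.23 for Astl (adjusted p = 0.177). These correspond to 64.7% to 65.9% of the untreated level. By limma 0 of 4 passed, against 1.62% of all genes, while all 4 had an unadjusted p under 0.05, as did 17% of all genes. In 4 of 4 the arrays did not overlap, against 14.6% of all genes that were lower. With the spread estimated from these 2 groups alone all 4 were called (adjusted p = 0.00533 to 0.0149), and after quantile normalization Zp2 was (-0.64, adjusted p = 0.0452). In the same contrast macrophage markers were above 0 in 7 of 7, none past the test, with sums of 1743 to 1896 after E2, against 1043 to 1190.2. Smooth muscle markers were above 0 in 5 of 5, none past the test, with sums of 12802 to 12996 against 9758 to 11633. Stroma markers were below 0 in 5 of 5 and 2 fell, and 1 of 6 theca markers fell. The 3′ to 5′ ratio of Gapdh was 0.83 to 0.908 after E2, against 0.805 to 0.823. Their part in the E2 values was not tested.

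In Pik3cd-/- ovaries the E2 values were -0.40 ± 0.22 for Zp1 (limma, adjusted p = 0.408), -0.33 ± 0.15 for Zp2 (adjusted p = 0.334), -0.12 ± 0.16 for Zp3 (adjusted p = 0.736) and -0.45 ± 0.23 for Astl (adjusted p = 0.374). By limma 0 of 4 passed, against 0.0551% of all genes. At an unadjusted p under 0.05 there was 1, Zp2, beside 14.6% of all genes, and the arrays overlapped in all 4, while 8.54% of all genes were lower without overlap. Without replicate 3 of the Pik3cd-/- E2 group the values were -0.03 for Zp1, -0.13 for Zp2, 0.18 for Zp3 and -0.05 for Astl, so the sign of Zp3 turned. In that replicate the 7 macrophage markers summed to 3659, against 2487 and 884 in the other arrays of the group. The part of those cells in its low egg coat signals was not tested.

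Responses to E2 in Pik3cd-/- minus those in Pik3cd+/- ovaries were 0.21 ± 0.32 for Zp1 (limma, adjusted p = 0.872), 0.27 ± 0.22 for Zp2 (adjusted p = 0.771), 0.49 ± 0.23 for Zp3 (adjusted p = 0.683) and 0.18 ± 0.33 for Astl (adjusted p = 0.9). By limma 0 of 4 members and 0 of 12713 genes (0%) passed. At an unadjusted p under 0.05 there were 1 member, Zp3, and 924 genes, or 7.27%. Without Pik3cd-/- E2 replicate 3 the values were 0.58 for Zp1 (adjusted p = 0.189), 0.47 for Zp2 (adjusted p = 0.242), 0.78 for Zp3 (adjusted p = 0.00331) and 0.57 for Astl (adjusted p = 0.167). Zp3 was then called, but that array was singled out for its low oocyte signals, so this is not a separate test. Without replicate 2 the values were -0.02 for Zp1, 0.32 for Zp3 and -0.01 for Astl, and without replicate 1 Astl was at -0.02.

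The hormones were also set against each other, at 44 and 72 hours, times that differ along with the agent. In Pik3cd+/- ovaries PMSG minus E2 was -0.40 ± 0.22 for Zp1 (limma, adjusted p = 0.257), -0.31 ± 0.15 for Zp2 (adjusted p = 0.198), -0.32 ± 0.16 for Zp3 (adjusted p = 0.213) and -0.34 ± 0.23 for Astl (adjusted p = 0.36). By limma 0 of 4 passed, against 11.2% of all genes, and none had an unadjusted p under 0.05, although the arrays did not overlap in 4 of 4, against 21.8% of all genes that were lower. With only these 2 groups in the fit Zp3 was called (adjusted p = 0.039). In Pik3cd-/- ovaries PMSG minus E2 was -0.10 ± 0.22 for Zp1, -0.25 ± 0.16 for Zp3 and 0.06 ± 0.23 for Astl, with limma adjusted p of 0.858, 0.434 and 0.918, and Zp2 after PMSG was at 99.7% of its level after E2. Here 0 of 4 were called, against 4.11% of all genes, and none had an unadjusted p under 0.05. Without Pik3cd-/- E2 replicate 3 the values were -0.47 for Zp1 (adjusted p = 0.0506), -0.20 for Zp2 (adjusted p = 0.352), -0.54 for Zp3 (adjusted p = 0.000547) and -0.33 for Astl (adjusted p = 0.134). Zp3 was then called and the sign of Astl turned, but that array was singled out for its low oocyte signals. Without replicate 2 of that group the values were 0.13 for Zp1, 0.11 for Zp2 and -0.08 for Zp3.

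**Figure D2:**
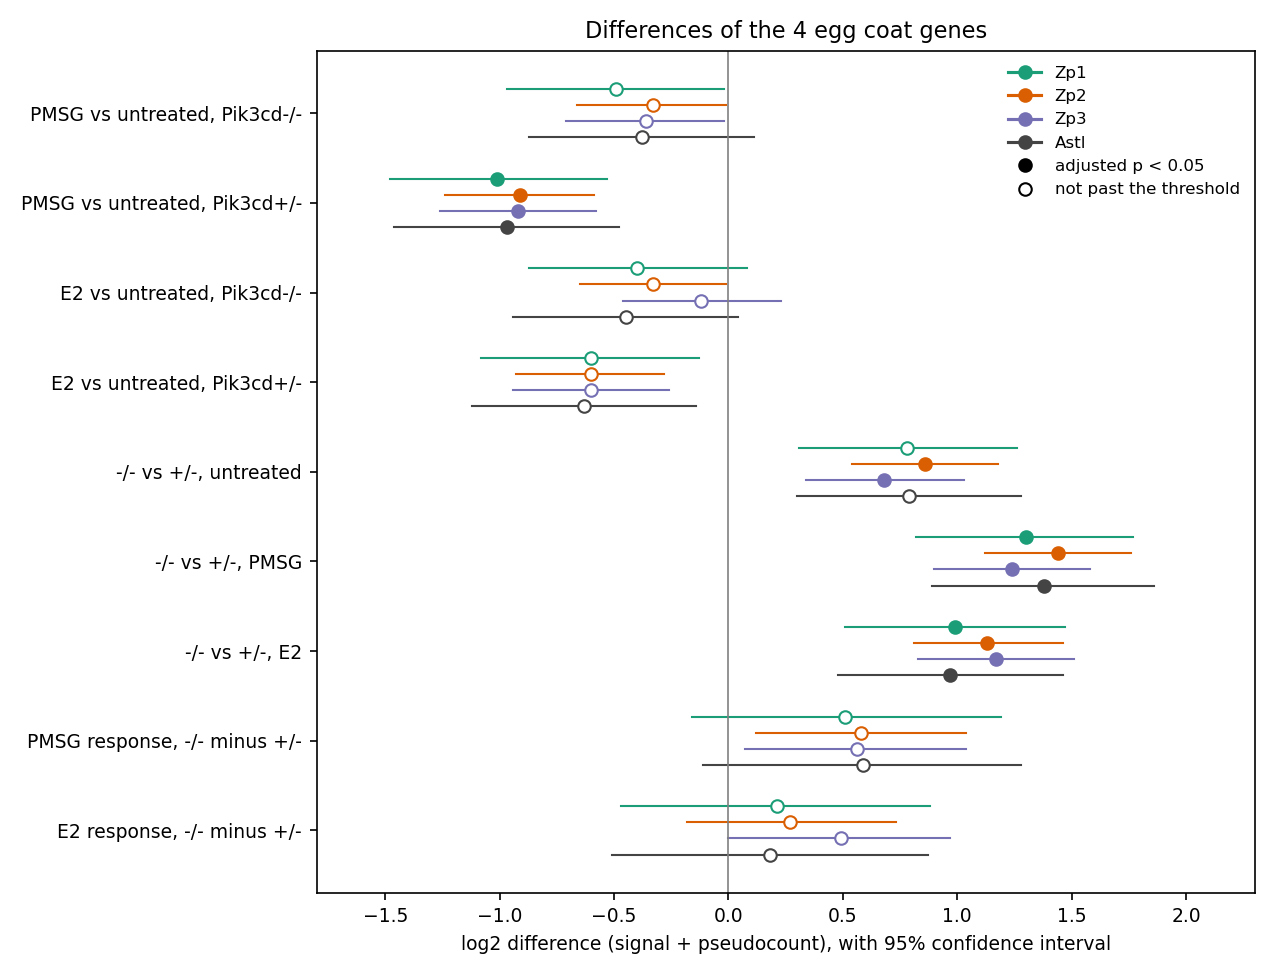
Log2 differences (horizontal axis, signal plus pseudocount) of the 4 egg coat genes in 9 comparisons (vertical axis), each with its 95% confidence interval; filled points have an adjusted p under 0.05 in the limma fit over all genes and open points do not. The filled points are the 4 PMSG differences in Pik3cd+/- ovaries, all 4 genotype differences after PMSG and after E2, and those of Zp2 and Zp3 in untreated ovaries.

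The 4 genes shared their pattern across the arrays. Over the 18 arrays the 6 pairwise Pearson correlations of log2 signal were 0.971 to 0.989, and after the group means were taken out they were 0.822 to 0.949. The arrays share groups and each array its RNA, and the correlations are descriptions. Genes whose log2 signal was most like that of a member over the 18 arrays were named by Pearson r, the 5 highest for each. For Zp1 these were Oas1c (0.994), Ccno (0.993), Tle6 (0.992), Uchl1 (0.991) and Lhx8 (0.989). For Zp2 they were Padi6 (0.992), Dppa3 (0.988), Itga6 (0.983), Gtsf1 (0.982) and Dppa5a (0.982). Zp3 was most like Dppa5a (0.990), Gtsf1 (0.989), Uchl1 (0.987), Nlrp5 (0.984) and Oser1 (0.983). Astl was most like Tex19.1 (0.994), Ccno (0.992), Tle6 (0.990), Zp1 (0.989) and Arhgap20os (0.988). Of the 15 different genes named, 7 were members or stood in the gene lists used here. Within groups the lowest of these correlations was that of Itga6 with Zp2, 0.754.

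The factors known to act on oocyte growth and zona gene transcription showed the same genotype direction in part. Of 7 listed, 6 were tested and Tbpl2, a germ-cell core promoter factor, was not matched. In untreated ovaries 4 of 6 rose in the mutant, beside 0.834% of all genes: the helix-loop-helix factors Sohlh1 (1.26 ± 0.28, limma adjusted p = 0.032), Figla (1.23 ± 0.28, adjusted p = 0.0348) and Sohlh2 (0.67 ± 0.14, adjusted p = 0.0275), and the homeobox factor Nobox (0.72 ± 0.17, adjusted p = 0.0405). After PMSG 5 of 6 rose, beside 3.08% of all genes, led by Nobox (1.18 ± 0.17, adjusted p = 0.00232), with Figla at 1.09 and Lhx8, another homeobox factor, at 1.04. After E2 5 of 6 rose, beside 4.85% of all genes, led by Figla (1.23 ± 0.28, adjusted p = 0.0111). That count was 2 without Pik3cd-/- E2 replicate 1, 2 without replicate 2 and 4 without replicate 3. Taf4b, a subunit of the general factor TFIID, was called in none of these, with -0.42 ± 0.15 in untreated ovaries (adjusted p = 0.132), -0.22 after PMSG and -0.20 after E2.

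The PMSG response of these factors in Pik3cd+/- ovaries was less even. Nobox (-0.97 ± 0.17, limma adjusted p = 0.00254) and Lhx8 (-0.88 ± 0.19, adjusted p = 0.00708) fell, 2 of 6, beside 11.9% of all genes. The value of Figla was -0.53 ± 0.28 (adjusted p = 0.189), that of Sohlh1 -0.27, that of Sohlh2 -0.09 and that of Taf4b 0.28, and none of these was called. Nobox was the 1 factor of 6 that also fell after E2 (-0.72 ± 0.17, adjusted p = 0.0442), beside 0.44% of all genes. The median over the 6 factors was -0.40 after PMSG in Pik3cd+/- ovaries.

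A further list held 9 genes, proteins of the egg surface or fertilisation together with Mos and Zbed3, which act in the egg cytoplasm, and all 9 were tested. After PMSG 6 of 9 fell in Pik3cd+/- ovaries: Mos, the kinase that holds the egg in meiotic arrest (-0.94 ± 0.22, limma adjusted p = 0.0103), the secreted oocyte proteins Oosp2 (-0.92), Oosp3 (-0.87) and Oosp1 (-0.67), Izumo1r, the egg receptor for sperm IZUMO1 (-0.70), and Zbed3, a partner of the subcortical maternal complex (-0.63). The tetraspanins Cd9, needed for fusion with sperm, and Cd81 were at -0.04 and 0.14 and were not called. Fetub, an inhibitor of ovastacin made mainly in the liver, was at -0.34 and not called. Between genotypes 4 of 9 rose after PMSG, Mos (1.00 ± 0.22, adjusted p = 0.0205), Zbed3 (0.81), Izumo1r (0.68) and Oosp1 (0.61). After E2 3 of 9 rose, Mos (0.86), Zbed3 (0.65) and Oosp1 (0.57), and Fetub fell (-0.93 ± 0.24, adjusted p = 0.0178). The number that rose was 0 without Pik3cd-/- E2 replicate 1, 0 without replicate 2 and 6 without replicate 3; the fall of Fetub was not called without replicate 1. In untreated ovaries 0 of 9 were called, with values from -0.36 for Fetub to 0.49 for Mos. Of all genes 11.9% fell after PMSG in Pik3cd+/- ovaries. Between genotypes 3.08% of all genes rose after PMSG, and 4.85% rose and 12% fell after E2. In untreated ovaries 2.17% of all genes were called between genotypes.

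The list of other oocyte genes held 23, of which 21 were tested and Npm2 and Oog1 were not matched. In Pik3cd+/- ovaries 16 of 21 fell after PMSG, led by Nlrp5 (-1.28 ± 0.22, limma adjusted p = 0.00209), Ooep (-1.03 ± 0.19, adjusted p = 0.00288) and Tle6 (-1.03 ± 0.21, adjusted p = 0.00483), which encode parts of the subcortical maternal complex; the median was -0.83. Between genotypes after PMSG 15 of 21 rose, led by Nlrp5 (1.71 ± 0.22, adjusted p = 0.00139), Ooep (1.37 ± 0.19, adjusted p = 0.00171) and Padi6, a protein of the egg cytoplasmic lattice (1.36 ± 0.17, adjusted p = 0.00139); the median was 0.92. After E2 19 of 21 rose, led by Ddx4, a germ cell RNA helicase (1.56 ± 0.16, adjusted p = 0.000367), Nlrp5 (1.43 ± 0.22) and Dppa3, a maternal factor of the early embryo (1.18 ± 0.18); the median was 0.93. Here 9 rose without Pik3cd-/- E2 replicate 1, 11 without replicate 2 and 20 without replicate 3. In untreated ovaries 5 of 21 rose, Ddx4 (1.11 ± 0.16, adjusted p = 0.00788) the furthest, and the median was 0.50. Of all genes 11.9% fell after PMSG in Pik3cd+/- ovaries. Between genotypes 3.08% of all genes rose after PMSG, 4.85% after E2 and 0.834% in untreated ovaries. After PMSG in Pik3cd-/- ovaries and after E2 in either genotype 0 of 21 were called by limma at the adjusted threshold, with medians of -0.35 for PMSG in Pik3cd-/-, -0.27 for E2 in Pik3cd-/- and -0.62 for E2 in Pik3cd+/- ovaries. The shares of all genes called there were 2.39%, 0.0551% and 1.62%, in the same order.

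Genes known mainly from other tissues share the ZP module of the zona proteins. Of 9 listed, 4 were tested: Eng and Tgfbr3, coreceptors for transforming growth factor beta ligands, Cuzd1 and Oit3. Umod, Gp2, Tecta and Tectb were too dim, and Zpld1 was not matched. None of the 4 was called between genotypes in any of the 3 states. After PMSG in Pik3cd+/- ovaries Oit3 fell (-0.74 ± 0.15, limma adjusted p = 0.00533), 1 of 4, beside 11.9% of all genes. Cuzd1 was at 1.77 ± 0.66 and was not called (adjusted p = 0.072), and Eng and Tgfbr3 were at -0.13 and 0.19.

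**Figure D3:**
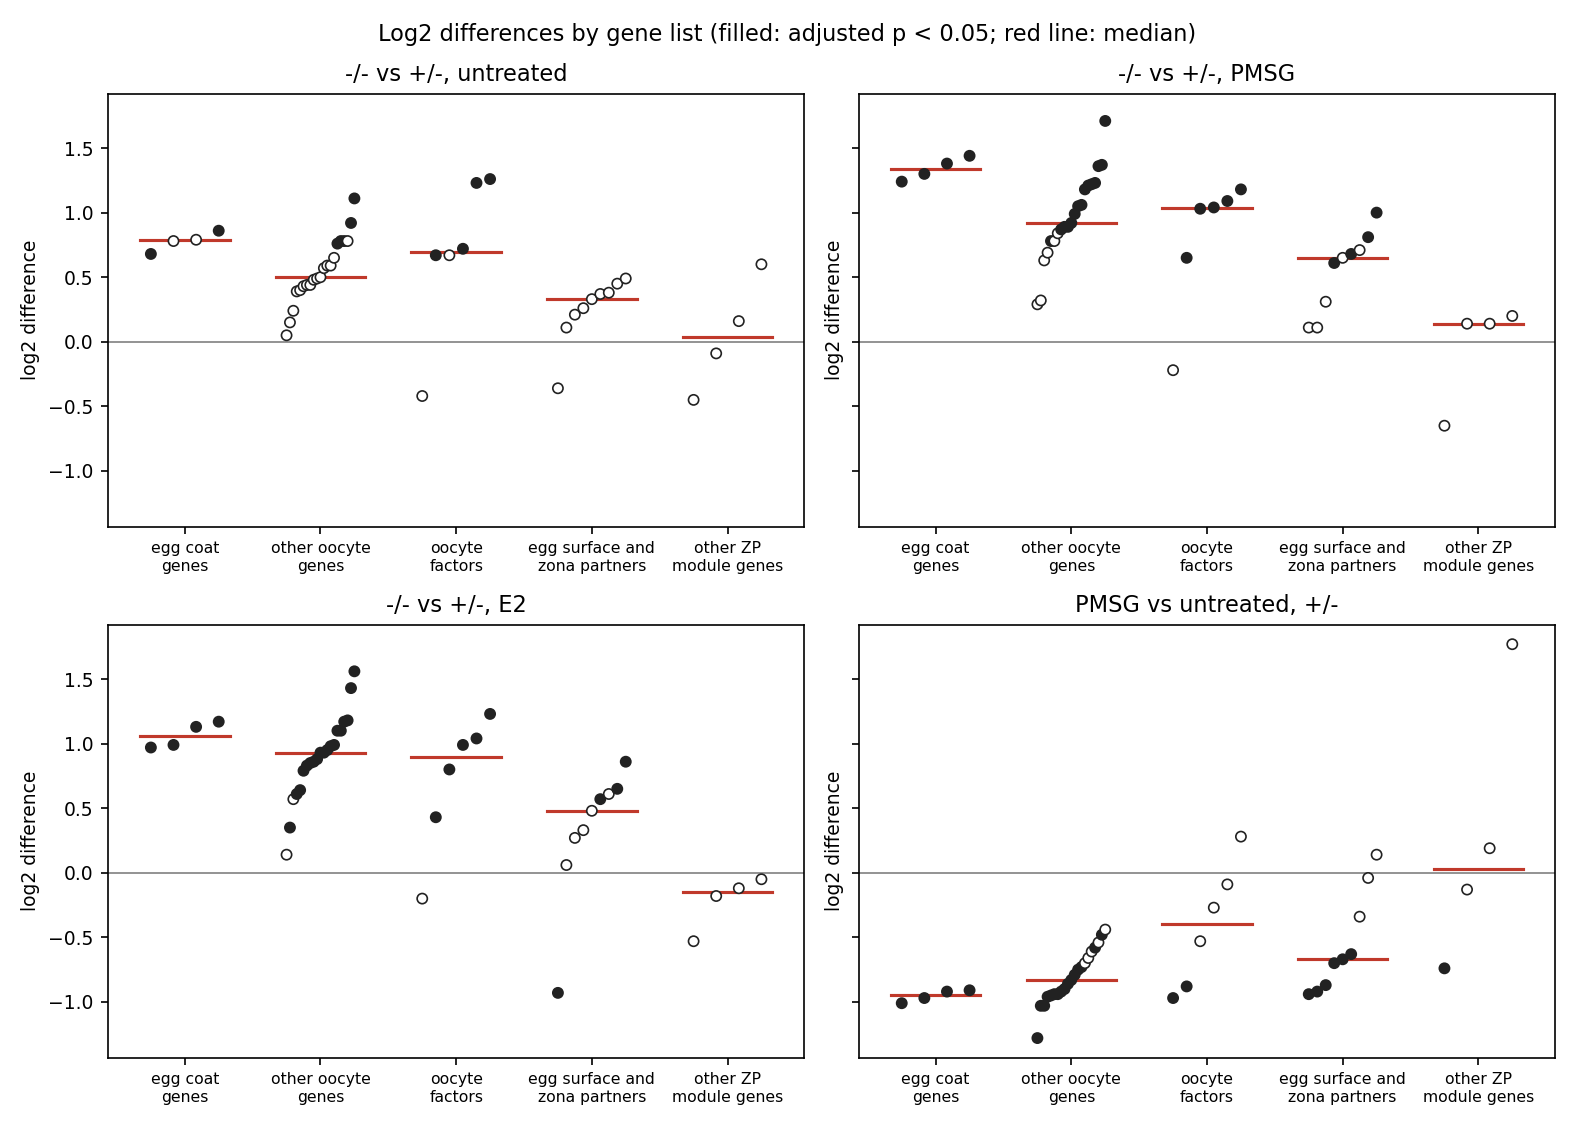
Log2 differences (vertical axes) of the egg coat genes and 4 gene lists (horizontal axis) between genotypes in 3 states and after PMSG in Pik3cd+/- ovaries; each point is a gene, filled where its adjusted p is under 0.05, and red lines are medians. The egg coat genes and the other oocyte genes lie above 0 in all 3 genotype panels and below 0 in the PMSG panel, and the other ZP module genes lie on both sides of 0 in 3 of the 4 panels.

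To place the egg coat genes beside other oocyte RNA, each was set against the mean log2 signal of the 21 other oocyte genes in the same array. That mean was 10.16, 10.29 and 10.29 in Pik3cd-/- PMSG arrays, against 9.19, 9.38 and 9.27 in Pik3cd+/- PMSG arrays. Over 18 arrays the correlation of each member with it was 0.988 for Zp1, 0.971 for Zp2, 0.990 for Zp3 and 0.982 for Astl. Within groups these were 0.936, 0.837, 0.973 and 0.936.

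Relative to that mean, all 4 members were still higher in Pik3cd-/- than in Pik3cd+/- ovaries after PMSG, by 0.33 for Zp1, 0.47 for Zp2, 0.28 for Zp3 and 0.41 for Astl (log2). Before the mean was taken out, the same difference was 1.24 to 1.44 for the members. For the 21 genes themselves it ran from 0.29 for Gpr3 to 1.71 for Nlrp5. Some genes of any set lie above its mean, so the sizes matter here. Nlrp5, Ooep (1.37) and Padi6 (1.36) were above Zp1 (1.30) and Zp3 (1.24) in this difference. Only Nlrp5 was also above Zp2 (1.44) and Astl (1.38). An excess of like size was thus not particular to the egg coat genes. Zp2 lay 0.92 to 1.06 above the mean in Pik3cd-/- PMSG arrays, against 0.42 to 0.67 in Pik3cd+/- PMSG arrays. It was also apart after E2, with 0.73 to 1.02 in Pik3cd-/- and 0.54 to 0.68 in Pik3cd+/- arrays, and in untreated ovaries, with 0.82 to 1.05 in Pik3cd-/- and 0.46 to 0.76 in Pik3cd+/- arrays. In untreated ovaries Zp1, Zp3 and Astl were not apart between genotypes. Zp3 was apart after PMSG (0.28) and after E2 (0.27), while Zp1 and Astl overlapped between genotypes after E2. Without Pik3cd-/- E2 replicate 3 Astl did not overlap (-0.56 and -0.54, against -0.84 to -0.62) and Zp1 still did, and the Zp2 values were 0.73 and 0.77. With 3 arrays against 3 the smallest two-sided exact permutation p is 0.1, which each of the 4 PMSG differences had. None can pass the threshold, and over the 36 such comparisons made the Benjamini-Hochberg adjusted value of these exact p was 0.3. The PMSG difference within Pik3cd+/- ovaries was -0.20 for Zp1, -0.11 for Zp2, -0.11 for Zp3 and -0.16 for Astl on this relative scale, against -1.01, -0.91, -0.92 and -0.97 before the mean was taken out.

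**Figure D4:**
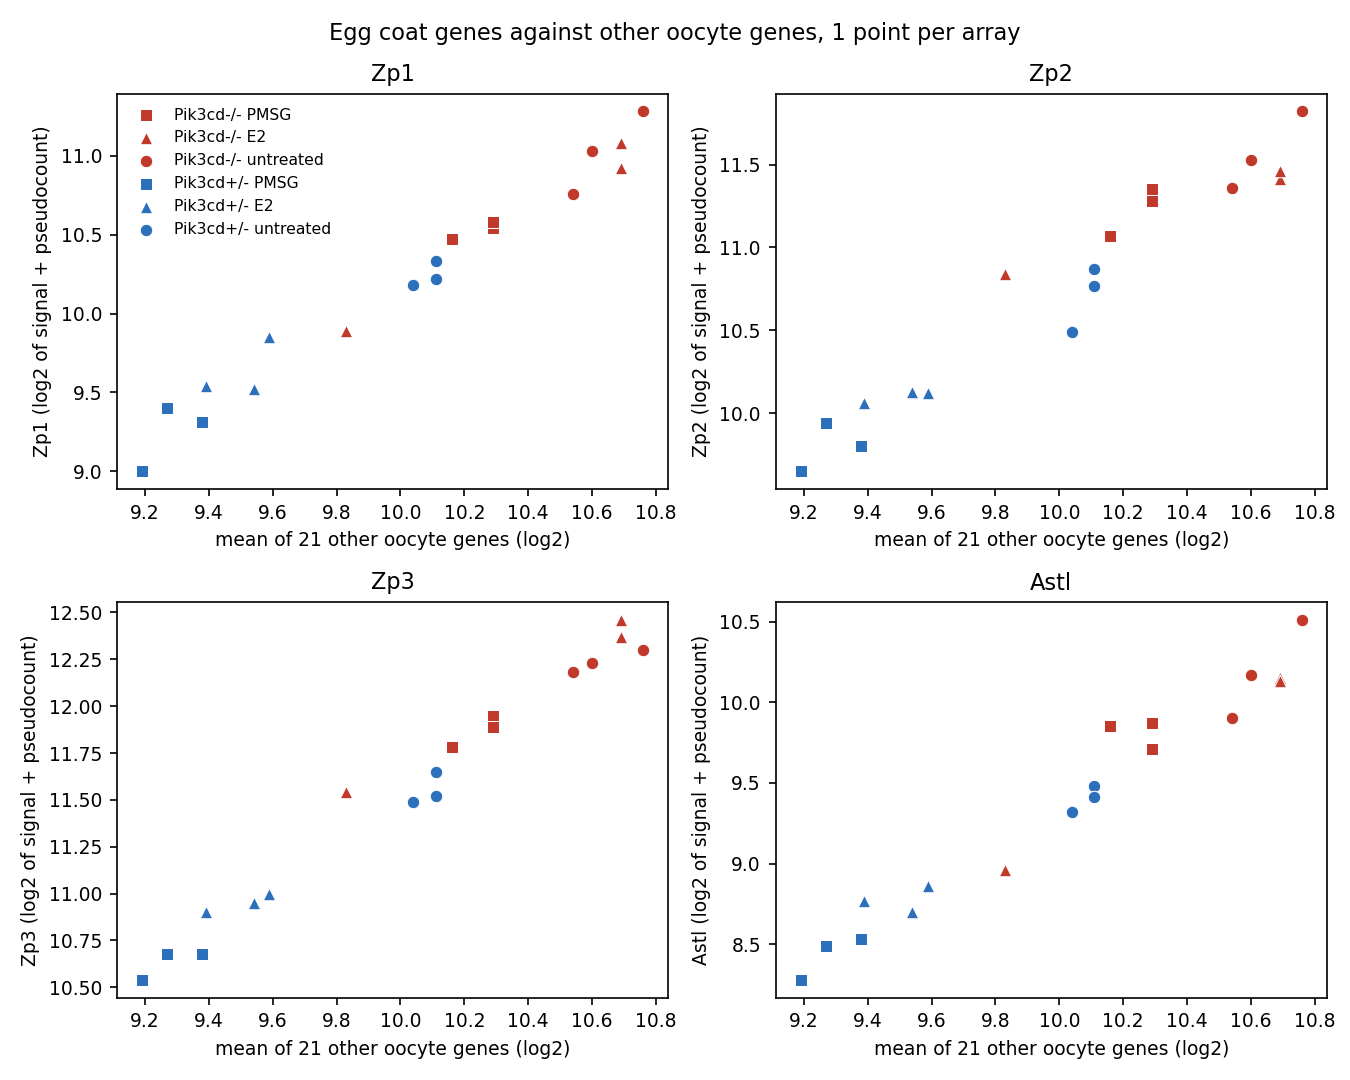
Log2 signal of each egg coat gene (vertical axes) against the mean log2 signal of 21 other oocyte genes (horizontal axes), 1 point per array; red is Pik3cd-/-, blue is Pik3cd+/-, and the symbol gives the treatment. The points run along 1 rising band in each panel, with Pik3cd+/- PMSG arrays at its low end and Pik3cd-/- untreated or E2 arrays at its high end.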

How the data were processed

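Ovary RNA was measured on 18 Affymetrix arrays. Per the submitters' processing notes the authors used MAS5, whose version is not given in the sources used here. The deposited values are intensity per probe set on a linear scale; how they were scaled is not given in the sources used here. Precision is limited by 3 arrays a group. Of 45101 probe sets, 64 controls, 9160 without a symbol and 932 with several were left out. Old symbols were updated through Entrez identifiers. The brightest probe set stood for a gene. The pseudocount added before log2 was 8.58, the 10th percentile of the signals, by a rule for tables whose overall median (here 49.9) is under 50. Genes with at least 1 group mean above the log2 median of 5.87 were tested. In R 4.3.3, limma 3.58.1 estimated the 6 group means and 11 two-sided comparisons among them (eBayes with trend; 12 residual and 3.66 prior degrees of freedom), each adjusted over 12713 genes at 0.05. The fit was tested on simulated data. Within a genotype the PMSG and E2 comparisons share the untreated arrays. The labels call the replicates biological; whether each was 1 animal or a pool is not given.

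The 4 members, the gene lists and the markers were chosen with earlier results of these data known. Named were all members, the 5 genes most like each, all of the factor and egg surface lists, and the 3 other oocyte genes with the largest change; other ZP module genes and the Oas genes were named after their values were seen. Replicate numbers are shared between groups, without a label that they mark a litter or day. In 9 comparisons of 2 groups, deviations of same-numbered arrays from their group means correlated at -0.34 to 0.3 over 27 pairs, and all 3 pairs exceeded 0.1 only between genotypes after PMSG. Alternatives were other pseudocounts (1 and 64), the filter dropped or raised to the 70th percentile, quantile normalization, no trend, only the groups compared, a replicate block, the most variable probe set, and each array left out. Leaving out each Pik3cd-/- E2 array was extended to the gene lists and Oas genes after the data were seen.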

Additional observations from a re-analysis of the deposited data

How the results depend on the processing

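No value of a member changed sign under another pseudocount, filter, normalization, trend setting, spread estimate, replicate block or probe set choice. With the spread estimated from the groups compared alone, the members called were 1 for PMSG in Pik3cd-/- ovaries (Zp3), 4 for E2 in Pik3cd+/- ovaries, 1 between genotypes after E2 (Zp2) and 1 for PMSG against E2 in Pik3cd+/- ovaries (Zp3); in untreated ovaries Zp1 joined Zp2 and Zp3. Quantile normalization gave 1 call for E2 in Pik3cd+/- ovaries. With each array left out in turn, members called were 0 to 2 between genotypes in untreated ovaries, 2 to 4 after E2, 0 to 1 for PMSG against E2 in Pik3cd-/- ovaries and 0 to 1 for the E2 interaction; the last 2 reached 1 without Pik3cd-/- E2 replicate 3. Signs that turned when an array was left out belonged to values not called with all arrays: Zp3 for E2 in Pik3cd-/- ovaries (-0.28 to 0.18); Zp1 (-0.47 to 0.13), Zp2 (-0.20 to 0.11) and Astl (-0.33 to 0.26) for PMSG against E2 in Pik3cd-/- ovaries; and Zp1 (-0.02 to 0.58) and Astl (-0.02 to 0.57) for the E2 interaction. The cause was not tested. The replicate block left the members called at 4 between genotypes after PMSG, 4 after E2, 2 in untreated ovaries and 4 for PMSG in Pik3cd+/- ovaries, and changed no other call.

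Counts over all genes moved more. Leaving out single arrays gave 870 to 2403 genes for PMSG in Pik3cd+/- ovaries (2255 with all), 86 to 382 for PMSG in Pik3cd-/- ovaries (304), 33 to 110 for E2 in Pik3cd+/- ovaries (206), 2 to 24 for E2 in Pik3cd-/- ovaries (7), and 613 to 1657 (1423) and 232 to 1339 (522) for PMSG against E2 in Pik3cd+/- and Pik3cd-/- ovaries. Between genotypes it gave 82 to 384 after PMSG (525), 642 to 2940 after E2 (2141) and 1 to 678 in untreated ovaries (276), with 1 without Pik3cd+/- untreated replicate 2 and 678 without Pik3cd-/- untreated replicate 3; the interactions reached 4 for PMSG and, without Pik3cd-/- E2 replicate 3, 69 for E2. The groups compared alone gave 764 genes for E2 in Pik3cd+/- ovaries, 0 for E2 in Pik3cd-/- ovaries, 216 for PMSG against E2 in Pik3cd-/- ovaries, and 989, 97 and 95 between genotypes after PMSG, after E2 and in untreated ovaries. Quantile normalization gave 485 for PMSG in Pik3cd-/- ovaries, 425 between genotypes in untreated ovaries and 3 for the PMSG interaction. Other settings gave 2 to 16 for E2 in Pik3cd-/- ovaries and up to 2 for the interactions. Dim transcripts near the pseudocount have compressed differences, a limit that does not reach the 4 members, whose lowest signal was 302.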

Other observations

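One neighbour in pattern, Oas1c, was followed into its family after its values were seen. The Oas genes encode oligoadenylate synthetases, of which Oas1a and Oas2 are known as antiviral genes induced by interferon. After PMSG in Pik3cd+/- ovaries Oas1c (-1.03 ± 0.21, limma adjusted p = 0.00522), Oas1e (-1.13 ± 0.24, adjusted p = 0.00641) and Oas1h (-0.90 ± 0.23, adjusted p = 0.0171) fell, while Oas1a rose (0.72 ± 0.21, adjusted p = 0.0276). Between genotypes after PMSG Oas1c (1.19), Oas1e (1.13) and Oas1h (1.09) were called higher in Pik3cd-/- ovaries, and Oas1a (-0.30, adjusted p = 0.506) was not called. After E2 in Pik3cd+/- ovaries Oas1a (0.91, adjusted p = 0.0404) and Oas2 (0.68, adjusted p = 0.0271) rose. Between genotypes after E2 Oas2 (-0.60, adjusted p = 0.0134) and Oasl2 (-1.27, adjusted p = 0.019) were lower in Pik3cd-/- ovaries, where Oas1c (0.99, adjusted p = 0.00838), Oas1e (0.77, adjusted p = 0.0401) and Oas1h (0.99, adjusted p = 0.0131) were higher. Of these E2 calls, Oas1e was lost without Pik3cd-/- E2 replicate 1 (adjusted p = 0.157) and without replicate 2 (adjusted p = 0.146), Oas1h (adjusted p = 0.0681) and Oas2 (adjusted p = 0.0554) without replicate 1, and Oasl2 (adjusted p = 0.0707) without replicate 2; all 5 held without replicate 3. Over the 18 arrays the correlation with Zp1 was 0.994 for Oas1c, 0.979 for Oas1e and 0.989 for Oas1h, and -0.683 for Oas1a, -0.651 for Oas2 and -0.689 for Oasl2. The other family genes tested were Oas1f (0.898), Oas1b (0.037) and Oasl1 (-0.611). They were not called in any comparison with untreated ovaries or between genotypes. Oas2 was at 0.25 after PMSG in Pik3cd+/- ovaries and was not called (limma adjusted p = 0.243). Of all genes 11.9% fell and 5.81% rose after PMSG in Pik3cd+/- ovaries, and 1.18% rose there after E2. Between genotypes 3.08% of all genes rose after PMSG, and 4.85% rose and 12% fell after E2. The Oas genes are near-identical copies in places, and how their probe sets share transcripts was not tested.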
